A study of Homo sapiens with 6 samples.

Results

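ZNF667-AS1 and the 5 zinc finger genes beside it on the long arm of human chromosome 19 (band 19q13.43) were examined in a prostate epithelial cell line and in its arsenite-transformed descendant. The members are ZNF583, ZNF667, ZNF667-AS1, ZNF471, ZFP28 and ZNF470, 6 of the 18417 genes measured. They were taken from a list of genes of this stretch, and each was represented by its brightest feature with 1 gene symbol; all 6 had a single such feature. The members were selected on the measured difference between both cell groups on these arrays, so that difference is given for the members as a description, without a test. In the order of RefSeq gene starts the 6 genes are consecutive among the measured genes of chromosome 19.

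CAsE-PE cells are RWPE-1 cells that were grown continuously in 5 µM sodium arsenite until they had undergone malignant transformation. They were sampled after 30, 33.5 and 35 weeks of exposure, with 1 array each. RWPE-1 is a non-tumorigenic prostate epithelial line immortalised with human papillomavirus, and it served untreated at passages 18, 38 and 42, again with 1 array each. Both groups had the same keratinocyte serum-free medium with pituitary extract and growth factor. Each group is a single line sampled 3 times, and nothing in the labels says that the samples were separate cultures, so every p-value measures only the spread between these arrays. The labels name no untreated culture kept for as long as the exposed one, so arsenite, transformation and time in culture cannot be told apart.

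Zinc finger proteins with a KRAB domain bind DNA through a row of zinc fingers and bring the corepressor TRIM28 and a histone H3 lysine 9 methyltransferase to the bound sites, which silences them. Their genes arose by repeated duplication and lie in clusters, many of them on chromosome 19, and promoters rich in CG dinucleotides in such clusters are known to become methylated in tumours. ZNF667, ZNF583, ZNF471, ZFP28 and ZNF470 encode proteins of this kind. ZNF667-AS1, also named MORT, is a long non-coding RNA transcribed from the opposite strand next to the start of ZNF667, and is known for its loss in many cancer cell lines.

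Intensities are in linear array units as deposited, and log2 levels are log2(intensity + 1). Array medians lay between 91.7 and 97.2 units, and correlations of log2 levels over features were 0.985 to 0.995 between arrays of 1 group and 0.957 to 0.969 between groups. The 7 measured epithelial markers, keratins and adhesion genes among them, summed to 10480 to 11823 units in CAsE-PE and 12125 to 12995 in RWPE-1. Of these 7 genes 2 were called lower by limma, the basal keratins KRT14 (−1.60, SE 0.31, adjusted p = 0.00748) and KRT15 (−1.77, SE 0.34, adjusted p = 0.00714), and 1 higher, the adhesion gene CDH1 (0.39, SE 0.09, adjusted p = 0.0186). The 3 measured luminal prostate markers summed to 149 to 152 units in CAsE-PE and 167 to 179 in RWPE-1. In CAsE-PE the sums were 451 to 480 units for 6 fibroblast markers, 151 to 173 for 4 leukocyte, 179 to 199 for 4 endothelial and 125 to 146 for 3 neuroendocrine markers. In RWPE-1 the sums of the same lists were 457 to 494, 192 to 201, 196 to 224 and 159 to 189 units. Outside the epithelial list, 1 fibroblast and 1 leukocyte marker were called lower, and no other marker was called. Of all genes 8.71% were called lower and 9.04% higher, and the marker lists are too small to be read against those shares. The part of these sums in the results below was not tested. No detection call accompanied the intensities, so low values could not be told from background, and a fall to such values gives a fold that background may understate.

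Promoters are shown because the 6 genes were low together. RefSeq windows of GRCh38.p14 that run from 250 bases before to 50 bases after a transcript start were matched by symbol for 4 of the 6 members. The window of the first listed start is printed for each of them, 5′ to 3′, with that of ZNF71, the nearest measured gene beyond ZNF470, which was not called. Capitals mark CG dinucleotides, the sites of DNA methylation.
ZNF583 (chr19:56403764-56404063, plus strand): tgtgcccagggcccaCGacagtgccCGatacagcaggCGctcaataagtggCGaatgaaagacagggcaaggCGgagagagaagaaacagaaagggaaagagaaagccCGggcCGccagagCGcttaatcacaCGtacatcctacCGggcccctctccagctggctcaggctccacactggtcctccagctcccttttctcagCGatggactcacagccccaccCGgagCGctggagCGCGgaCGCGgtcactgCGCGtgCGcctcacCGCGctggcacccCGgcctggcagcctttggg
ZNF667 (chr19:56477296-56477595, minus strand): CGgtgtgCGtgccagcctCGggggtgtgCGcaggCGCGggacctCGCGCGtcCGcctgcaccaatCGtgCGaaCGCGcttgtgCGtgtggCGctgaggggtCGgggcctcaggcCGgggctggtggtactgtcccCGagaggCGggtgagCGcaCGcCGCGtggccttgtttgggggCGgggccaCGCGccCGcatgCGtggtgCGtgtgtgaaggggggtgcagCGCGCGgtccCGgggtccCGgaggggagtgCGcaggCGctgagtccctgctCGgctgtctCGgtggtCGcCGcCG
ZNF667-AS1 (chr19:56477624-56477923, plus strand): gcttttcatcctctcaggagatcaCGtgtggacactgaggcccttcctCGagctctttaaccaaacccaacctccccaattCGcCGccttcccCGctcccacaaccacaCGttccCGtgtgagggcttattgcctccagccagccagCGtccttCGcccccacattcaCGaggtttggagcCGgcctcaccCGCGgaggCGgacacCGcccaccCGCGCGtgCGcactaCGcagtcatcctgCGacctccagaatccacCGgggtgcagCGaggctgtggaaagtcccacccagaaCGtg
ZNF470 (chr19:56567218-56567517, plus strand): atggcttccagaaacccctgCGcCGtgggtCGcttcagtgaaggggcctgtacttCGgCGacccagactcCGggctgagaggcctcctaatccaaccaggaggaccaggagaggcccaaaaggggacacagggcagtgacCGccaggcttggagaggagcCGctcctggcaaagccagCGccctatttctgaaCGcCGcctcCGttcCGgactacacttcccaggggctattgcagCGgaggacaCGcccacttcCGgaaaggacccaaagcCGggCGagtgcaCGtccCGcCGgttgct
ZNF71 (chr19:56595052-56595351, plus strand): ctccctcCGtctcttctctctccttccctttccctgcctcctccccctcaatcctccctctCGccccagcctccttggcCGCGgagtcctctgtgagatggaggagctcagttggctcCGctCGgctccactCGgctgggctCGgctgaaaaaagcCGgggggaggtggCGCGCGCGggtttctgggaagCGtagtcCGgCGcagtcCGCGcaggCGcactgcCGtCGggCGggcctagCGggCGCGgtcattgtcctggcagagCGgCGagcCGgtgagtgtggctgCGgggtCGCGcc

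The ZNF667 window held 42 CG dinucleotides, more than 94.2% of the 35114 windows of the table, and its observed to expected CG ratio was 1.03. The first ZNF667-AS1 window is separated from the ZNF667 window by 28 bases and is read in the opposite direction, so transcription from these 2 starts runs apart. It held 24 CG dinucleotides (ratio 0.85). The printed ZNF583 window held 23, a second ZNF583 start had 30, ZNF470 had 21 and ZNF71 had 31, where the median of all windows was 14. With the window of most CG dinucleotides taken per gene, the median over measured genes was 25. The GC box GGGCGG, searched on both strands, was found in the ZNF667 and ZNF667-AS1 windows printed and in that of ZNF71, as in 45.0% of all windows, and not in the printed windows of ZNF583 and ZNF470. The TATA box TATAAA was in none of the 5 printed windows, against 11.5% of all windows.

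All 6 genes were lower in CAsE-PE than in RWPE-1, by 3.05-fold for ZNF470 to 26.7-fold for ZNF667-AS1. Every CAsE-PE array lay below every RWPE-1 array for each of them. Of all genes, 8.71% were called lower (limma, Benjamini-Hochberg adjusted p under 0.05), 2.06% were called lower by at least 2-fold, and 22.8% had every CAsE-PE array below every RWPE-1 array. All 6 members met each of these 3 conditions, and nothing is read from that, since the same contrast chose them.

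The antisense RNA ZNF667-AS1 (feature 8031646) had 24.2, 33.5 and 18.9 units at 30, 33.5 and 35 weeks in CAsE-PE, against 733, 828 and 540 units at passages 18, 38 and 42 in RWPE-1. Its highest CAsE-PE array and its lowest RWPE-1 array were 3.97 apart on the log2 scale, while the range within a group was 0.79 in CAsE-PE and 0.62 in RWPE-1. The mean log2 level was 4.69 ± 0.40 in CAsE-PE and 9.43 ± 0.32 in RWPE-1 (SD, n = 3 each), a difference of −4.74 (SE 0.21). This is the deepest fall of all 18417 genes.

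ZNF667 (feature 8039593), the partner gene on the other strand, had 36.8, 31.0 and 35.2 units at 30, 33.5 and 35 weeks in CAsE-PE, against 132, 129 and 134 units at passages 18, 38 and 42 in RWPE-1. Both groups were tight, with a log2 range of 0.24 in CAsE-PE and of 0.05 in RWPE-1. The mean log2 level was 5.14 ± 0.12 in CAsE-PE and 7.05 ± 0.03 in RWPE-1, a difference of −1.92 (SE 0.10) or 3.77-fold. The difference of the antisense RNA minus that of its partner was −2.82 on the log2 scale. The mean log2 level of the antisense RNA minus that of its partner was 2.38 in RWPE-1 and −0.45 in CAsE-PE. In CAsE-PE both were dim, at means of 25.5 and 34.3 units, where the lower quartile of these arrays was 32.4 to 33.2. The partner was the dimmer in RWPE-1 and had less room to fall, so −2.82 is not read as a deeper loss of the antisense RNA. The labels do not say whether the target keeps the strand, and in RefSeq the whole spans of both genes overlap by 220 bases, since the span of ZNF667 reaches past the start of its printed window.

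**Figure D1:**
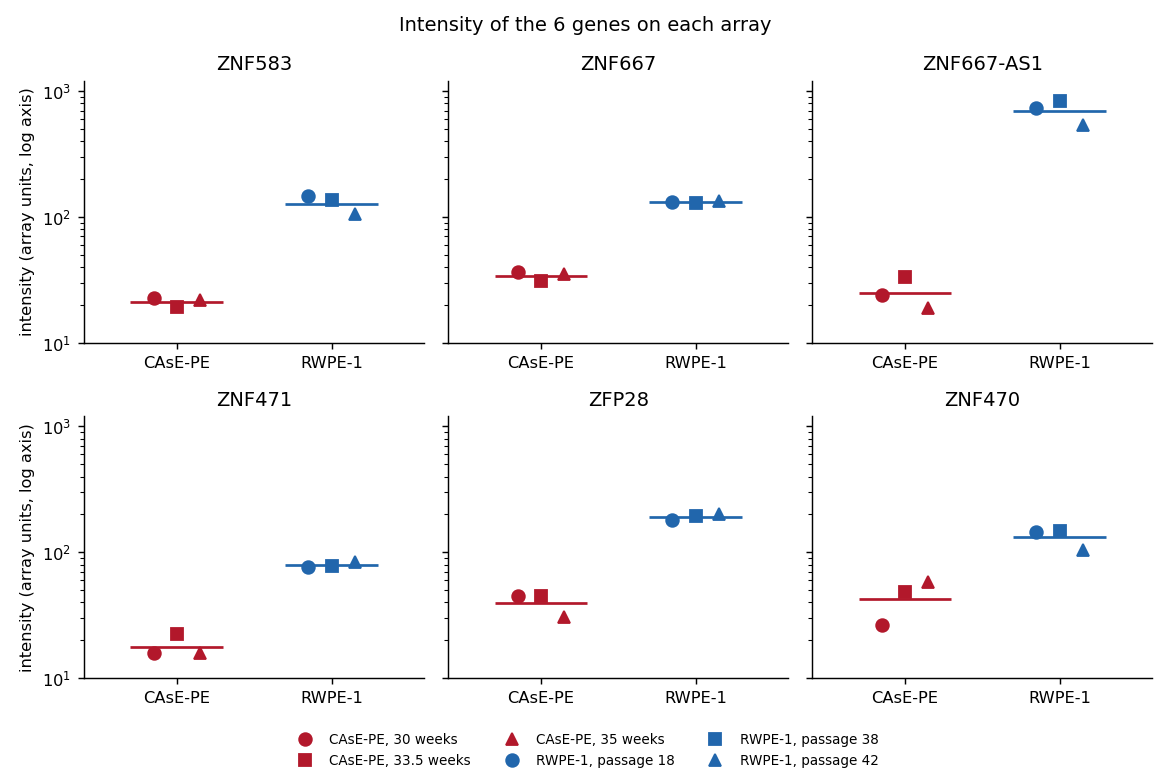
Intensity in array units on a log axis for the 6 genes, with 3 CAsE-PE arrays (red, left) and 3 RWPE-1 arrays (blue, right) per panel; the line is the back-transformed mean of log2 levels. ZNF667-AS1 sits between 18.9 and 33.5 units in CAsE-PE and between 540 and 828 in RWPE-1, and the groups overlap for none of the 6 genes.

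ZNF583 (feature 8031640), a KRAB zinc finger gene on the far side of ZNF667, had 22.7, 19.4 and 21.8 units in CAsE-PE at 30, 33.5 and 35 weeks, against 147, 136 and 106 units in RWPE-1 at passages 18, 38 and 42. The CAsE-PE arrays were close together and the passage 42 array was the lowest of its group. The mean log2 level was 4.48 ± 0.11 in CAsE-PE and 7.01 ± 0.24 in RWPE-1, a difference of −2.54 (SE 0.14) or 5.80-fold.

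ZNF471 (feature 8031650), a KRAB zinc finger repressor gene, had 15.9, 22.4 and 15.8 units in CAsE-PE in order of weeks, against 76.9, 77.8 and 83.4 units in RWPE-1 in order of passage. The 33.5-week array was the highest of the CAsE-PE arrays, as it was for ZNF667-AS1. The mean log2 level was 4.23 ± 0.27 in CAsE-PE and 6.33 ± 0.06 in RWPE-1, a difference of −2.09 (SE 0.14) or 4.27-fold.

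ZFP28 (feature 8031659), a KRAB zinc finger gene with a counterpart in mouse, had 45.3, 45.0 and 30.4 units in CAsE-PE in order of weeks, against 180, 193 and 202 units in RWPE-1 in order of passage. The 35-week array was the lowest of all. The mean log2 level was 5.34 ± 0.32 in CAsE-PE and 7.59 ± 0.08 in RWPE-1, a difference of −2.25 (SE 0.16) or 4.74-fold.

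ZNF470 (feature 8031669), the last of the 6 genes towards the chromosome end, had 26.3, 48.9 and 58.7 units in CAsE-PE in order of weeks, against 146, 147 and 105 units in RWPE-1 in order of passage. Its CAsE-PE arrays were spread over 1.13 on the log2 scale, the widest within-group range of any member, and its groups came within 0.83 of each other. The mean log2 level was 5.44 ± 0.59 in CAsE-PE and 7.05 ± 0.27 in RWPE-1, a difference of −1.61 (SE 0.26). With 1 array left out the difference lay between −1.84 and −1.28.

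Within the groups the members stood differently on single arrays, which is a description without a test. Their CAsE-PE values were 15.8 to 58.7 units, where the lower quartile of these arrays was 32.4 to 33.2. Shifts on 1 array at such levels cannot be told from noise. At passage 42, ZNF667-AS1, ZNF470 and ZNF583 stood at −0.35, −0.31 and −0.27 relative to their own RWPE-1 means on the log2 scale, whereas ZNF667, ZNF471 and ZFP28 stood at 0.03, 0.07 and 0.08. Relative to its RWPE-1 mean, ZNF470 stood at −2.28 at 30 weeks, −1.41 at 33.5 and −1.15 at 35, while ZFP28 stood at −2.06, −2.06 and −2.61. ZNF667 lay between −2.05 and −1.81 and ZNF583 between −2.66 and −2.45.

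The changes over passages of RWPE-1 and over weeks of CAsE-PE were not used to choose the members and were tested as slopes in 1 limma model over all 18417 genes. Over passages 0.0217% of all genes were called, and 0 of the 6 members, with slopes of −0.15 to 0.06 per 10 passages and adjusted p-values of 0.858 to 0.998. At an unadjusted p under 0.05 the count of members was also 0. Over weeks 0.25% of all genes were called, and 0 of the 6 members, with 1 member at an unadjusted p under 0.05. That gene was ZNF470, whose slope was 0.23 per week (SE 0.04, limma adjusted p = 0.0863), with each later array higher than the one before. It passed with a trended, robust prior (adjusted p = 0.0424) and without the 33.5-week array (0.0392). It also passed without any 1 of the RWPE-1 arrays (0.0195 each). These are 1 result repeated, because the spread then comes from the same CAsE-PE arrays each time. With 1 residual degree of freedom, that fit called 226 genes over weeks, against 46 with all arrays. Without the 30-week array the slope was 0.17 (adjusted p = 1), and over all alternatives the adjusted p ranged from 0.0195 to 1. ZFP28 had a slope of −0.09 per week (SE 0.04, limma adjusted p = 0.493), and the other 4 members lay between −0.03 and 0.02.

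**Figure D2:**
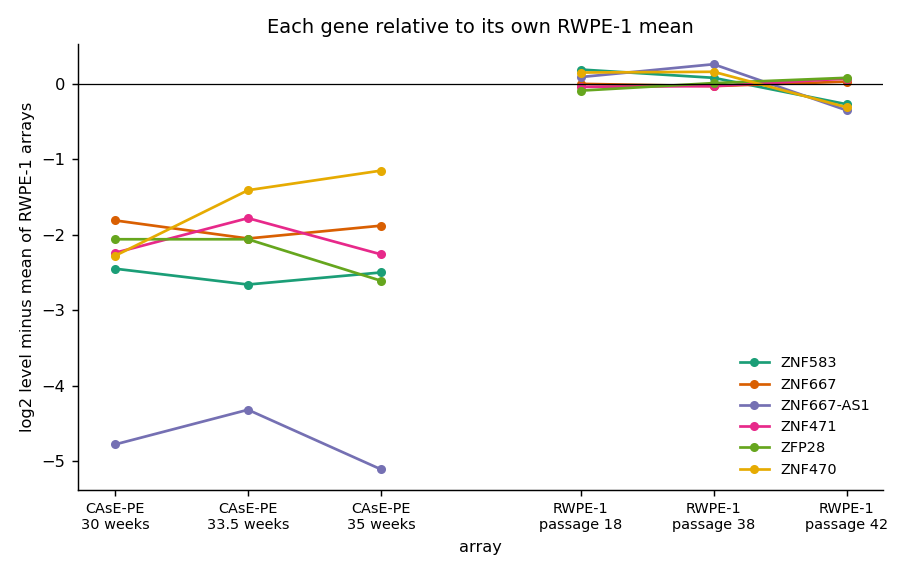
Log2 level of each of the 6 genes minus its own mean over the RWPE-1 arrays, by array, with the 3 CAsE-PE arrays by weeks on the left and the 3 RWPE-1 arrays by passage on the right; lines join arrays of 1 group. ZNF667-AS1 runs at −4.32 to −5.11 in CAsE-PE, ZNF470 stands at −2.28, −1.41 and −1.15 over the weeks, and ZFP28 is lowest at 35 weeks (−2.61).

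The lowered stretch went 2 genes beyond the members on 1 side and ended at the last member on the other. ZNF542P, a zinc finger pseudogene, had 21.8, 21.1 and 20.9 units in CAsE-PE in order of weeks, against 203, 214 and 151 in RWPE-1 in order of passage. It fell by 3.08 on the log2 scale (SE 0.14, limma adjusted p = 4.58e-06), and its groups did not overlap. ZNF582, a KRAB zinc finger gene next to ZNF583 that is known for methylation in several cancers, had 22.5, 30.1 and 26.9 units in CAsE-PE, against 79.1, 63.3 and 69.3 in RWPE-1. It fell by 1.38 (SE 0.13, adjusted p = 0.00021), again with no overlap.

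Beyond these, the nearest measured genes did not pass the threshold. ZNF71, a zinc finger gene directly after ZNF470, had 156, 164 and 168 units in CAsE-PE, against 191, 171 and 165 in RWPE-1, and its groups overlapped (−0.11, SE 0.10, limma adjusted p = 0.481). ZSCAN5A, directly before ZNF542P, had 40.9, 53.5 and 41.0 units in CAsE-PE, against 50.0, 65.1 and 51.9 in RWPE-1, with overlap as well (−0.30, SE 0.14, adjusted p = 0.189). These 2 genes bound a run of 8 consecutive measured genes, ZNF542P to ZNF470, that were all called lower by at least 2-fold. It is the longest such run in the genome order of measured genes; the next has 5 genes, ZNF90 to ZNF626, also on chromosome 19. Without the 2-fold limit 3 runs of called falls were longer, the longest with 11 genes, PCDHA2 to PCDHA13. The runs were looked for after the values were seen, and 6 of the 8 genes were chosen for their falls.

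**Figure D3:**
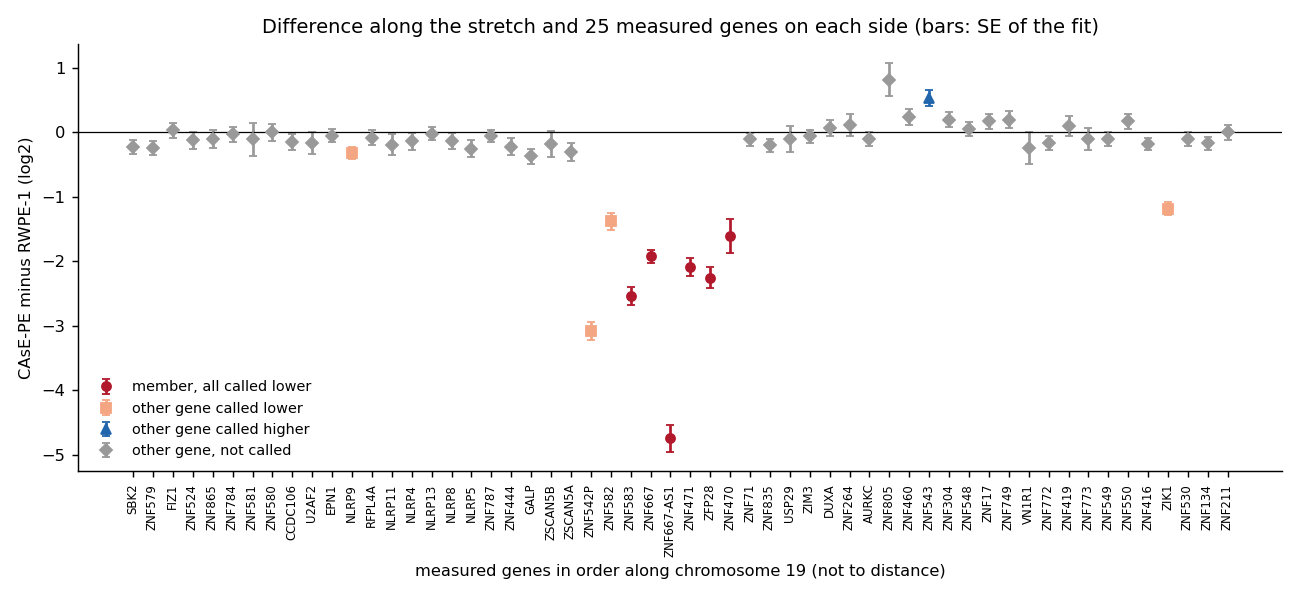
Log2 difference of CAsE-PE minus RWPE-1, with the SE of the fit, for the 6 genes and 25 measured genes on each side, in chromosome order. From ZNF542P (−3.08) to ZNF470 (−1.61) all genes are low, while ZSCAN5A (−0.30, SE 0.14) and ZNF71 (−0.11, SE 0.10) on either side were not called.

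In the flanks of 25 measured genes on each side, 4 of 50 genes were called lower (8.0%) and 1 higher (2.0%). Of all genes 8.71% were called lower and 9.04% higher, and of the measured genes of chromosome 19 the shares were 9.63% and 2.29%. The flanks as a whole were thus near the shares of their own chromosome. Of the 50 genes 17, with ZNF542P and ZNF582 among them, were in the dimmest 33.3% of all genes. A fall of a gene that is dim in both groups could be missed. The median difference of the 50 was −0.10, against −0.06 over all genes and −0.11 over those of chromosome 19. Beside ZNF542P and ZNF582, the calls were ZIK1, a zinc finger gene further towards the chromosome end, NLRP9, a gene of the NLR family, and the zinc finger gene ZNF543. ZIK1 had 129, 116 and 115 units in CAsE-PE, against 269, 291 and 257 in RWPE-1, without overlap (−1.18, SE 0.10, limma adjusted p = 0.000121). NLRP9 differed by −0.32 (SE 0.09, adjusted p = 0.0386), and did not pass once any array other than that of passage 42 was left out (highest adjusted p = 0.141). ZNF543 rose by 0.53 (SE 0.12, adjusted p = 0.0159), but did not pass with the passage 38 array left out (adjusted p = 0.0564).

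The imprinted PEG3 domain lies just past ZNF835, and USP29 and ZIM3, 2 of its 6 listed genes, were measured by features with 1 symbol. USP29 differed by −0.10 (SE 0.20, limma adjusted p = 0.762) and ZIM3 by −0.06 (SE 0.10, adjusted p = 0.686), so 0 of 2 were called. Neither was called under the alternatives that kept them; the filter on dim genes left out both. Neither reached an unadjusted p under 0.05. Both genes were dim in both groups: USP29 averaged 24.8 units in CAsE-PE and 26.5 in RWPE-1, and ZIM3 20.8 and 21.7. The lower quartiles of the 6 arrays were 32.4 to 34.3. A fall from such levels could not be told from background, so the lack of a call says nothing on the domain.

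Other zinc finger genes of chromosome 19 were taken by symbol, as ZNF or ZFP followed by digits only, with the members left out. The list thus holds ZNF582 of the lowered run and leaves out ZNF542P and ZIK1. Among these 221 genes, 37 were called lower (16.7%) and 7 higher (3.17%), with a median difference of −0.05. Of all genes 8.71% were called lower and 9.04% higher, and of the 1308 measured genes of chromosome 19 the shares were 9.63% and 2.29%. The deepest falls there were ZNF730 (−3.49, SE 0.19), ZNF737 (−3.38, SE 0.24) and ZNF560 (−3.24, SE 0.13), each with no overlap between the groups. These falls exceed those of the 5 zinc finger genes among the members and are smaller than that of ZNF667-AS1, with no test of the difference. With the dimmest 33.3% of genes left out, 21 of 165 were called lower, and 6 of the 8 genes of the run dropped out as too dim, namely 4 of the 6 members, ZNF542P and ZNF582. Members of this family share sequence, so the value of a single gene is uncertain. Quantile normalisation gave 14 higher.

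Of the 9 genes for the machinery that KRAB zinc finger proteins recruit, 0 were called lower by limma (1 at an unadjusted p under 0.05) and 2 higher, against 8.71% lower and 9.04% higher of all genes, with a median difference of 0.02. A count this small cannot be read against those shares. SETDB1, the histone H3 lysine 9 methyltransferase, rose by 0.42 (SE 0.11, limma adjusted p = 0.0309), and CBX1, an HP1 protein, rose by 0.35 (SE 0.10, adjusted p = 0.042). Both calls were lost when single arrays were left out, SETDB1 for all but the 33.5-week array (highest adjusted p = 0.0825) and CBX1 for each array (highest adjusted p = 0.147). TRIM28, the corepressor itself, differed by −0.14 (SE 0.10, adjusted p = 0.388).

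A search of the annotation for antisense RNAs named after a measured partner gave 148 pairs. Of these antisense RNAs 2 were called lower, ZNF667-AS1 and C1RL-AS1, and 10 higher, and of the partners 12 were lower and 16 higher. That is 1.35% lower and 6.76% higher for the antisense RNAs and 8.11% lower and 10.8% higher for the partners, against 8.71% and 9.04% of all genes. The median difference was −0.04 for both kinds. Both genes were lower in 2 pairs, both higher in 1 and opposite in 0. In the other lowered pair, C1RL-AS1 differed by −0.54 (SE 0.14, limma adjusted p = 0.0255) and C1RL, a protease-like gene, by −0.76 (SE 0.17, adjusted p = 0.0158), with the partner the lower of the 2 differences. In the raised pair, ARRDC1-AS1 differed by 1.07 (SE 0.10) and ARRDC1 by 0.58 (SE 0.13). The pairs were assembled after the values of ZNF667-AS1 were known. The counts and shares include ZNF667-AS1 and ZNF667, which this contrast chose, so their place among the lowered genes and pairs was fixed beforehand.

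**Figure D4:**
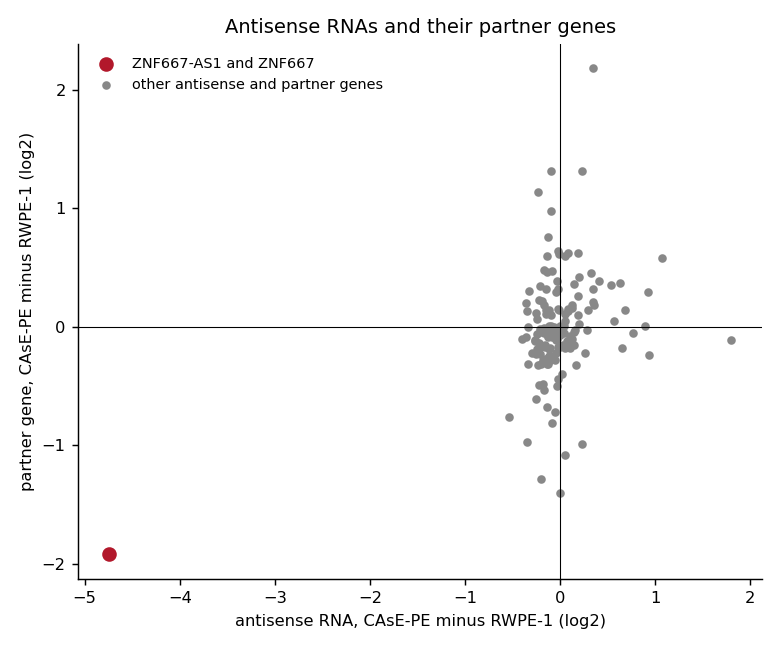
Log2 difference of CAsE-PE minus RWPE-1 for 148 antisense RNAs (x axis) and their partner genes (y axis), 1 point a pair. ZNF667-AS1 with ZNF667 lies at −4.74 and −1.92, and the next lowest antisense RNA, C1RL-AS1, at −0.54.

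The CG content of promoters is given as a description, with no test, since the run is defined by its lowered genes and its flanks are uncalled at both edges. The window with most CG dinucleotides was taken for each gene, and 5 of the 8 genes of the run had one: ZNF667 with 42, ZNF582 and ZNF583 with 30 each, ZNF667-AS1 with 24 and ZNF470 with 21. The median was 30 for these 5 genes. Over all measured genes with a window it was 25, with an upper quartile of 34, so the run lies within the ordinary range. Of the other 48 genes of the flanks 42 had a window, with a median of 20.5, and 21 of them held at least 21 CG dinucleotides, the lowest count of the run. Of these 21 genes 0 were called lower by limma, against 8.71% of all genes, and 0 were lower at an unadjusted p under 0.05. Their number is too small to be read against that share. The differences were −0.30 to 0.82, and ZNF543, with 27, was called higher (0.53, SE 0.12). ZIK1, with 20, lay just under the limit of 21 and was called lower (−1.18, SE 0.10), as was NLRP9 with 3 (−0.32, SE 0.09). ZNF71 with 31 and ZNF835 with 29 stand directly after ZNF470. Among the other zinc finger genes of chromosome 19, the 30 lowered genes with a window had a median of 16, and the 165 others with a window a median of 22. These are counts of letters, with no measure of methylation in these cells.

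**Figure D5:**
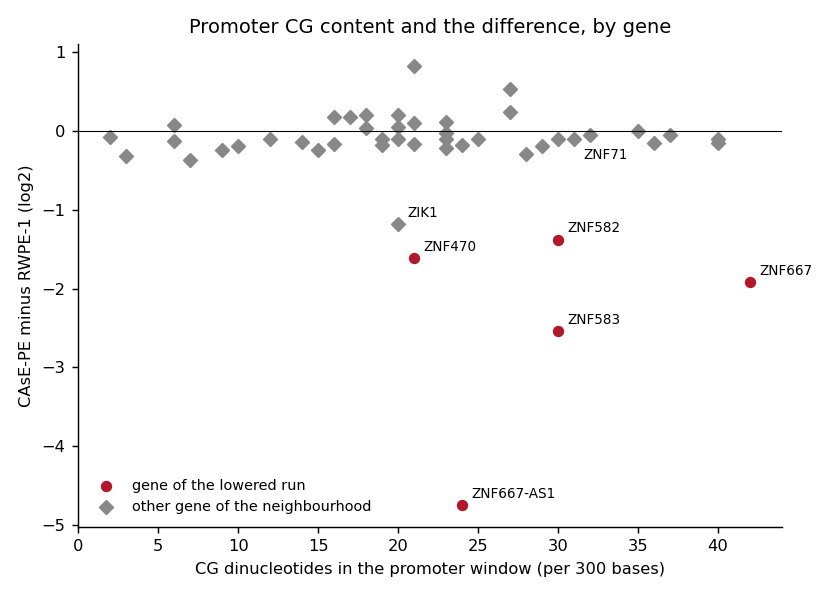
CG dinucleotides in the promoter window with most of them (x axis, per 300 bases) and log2 difference of CAsE-PE minus RWPE-1 (y axis) for the 47 genes of the neighbourhood with a window. The 5 genes of the lowered run lie between 21 and 42, where 21 flanking genes also lie, at differences of −0.30 to 0.82. ZIK1, called lower at −1.18, has 20.

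The 5 genes nearest to ZNF667-AS1 over the 6 arrays had group differences of −3.34 to −3.86. The measure follows the size of that difference, on which ZNF667-AS1 was selected, so it names genes with a fall of like size. By the root mean square difference of centred log2 levels they were SPARC on chromosome 5 (0.52), SNORD114-3 (0.71) and FLRT2 (0.77) on chromosome 14, ZNF730 on chromosome 19 (0.77) and VCAN on chromosome 5 (0.79). They are a matrix protein, a small nucleolar RNA, a cell-surface gene, a zinc finger gene and a matrix proteoglycan. ZNF542P was at rank 10 (0.86), and the members themselves ranged from 1.14 for ZNF583 to 1.62 for ZNF470, since they fell less. By Pearson correlation over the same 6 arrays the nearest were TP53BP2, ARHGAP25, PRKCQ, PEG10 and ANO4, with 0 genes shared. The correlations of the members with ZNF667-AS1 were 0.991 for ZNF471, 0.989 for ZFP28 and for ZNF583, 0.983 for ZNF667 and 0.907 for ZNF470. With 2 groups of 3 arrays that value follows the group difference, and 717 genes had at least 0.95.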

How the data were processed

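Total RNA was labelled with an Ambion whole-transcript kit and hybridised to 1-colour arrays, per the labels. The authors deposited 1 linear intensity per feature for 33252 features and 6 arrays; no source used here gives their background correction, summarisation or normalisation. The platform annotation gave 1 symbol for 19460 features, several for 1754 and none for 12038. Each of 18417 genes was represented by its brightest feature, and order along chromosomes came from RefSeq (GRCh38.p14). Groups were taken from the phenotype label and compared on log2(intensity + 1) by limma 3.58.1 under R 4.3.3 (two-sided moderated test, Benjamini-Hochberg over all genes, threshold 0.05), with 4 residual degrees of freedom for groups and 2 for slopes. The pseudocount of 1 understates folds of dim genes. Arrays have no read depth, and their number limits the precision.

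The members and all lists were chosen with earlier results of these data known. Named were the 6 members, called genes within 10 positions of the stretch, the first gene on each side, up to 5 further called neighbours, called genes of the PEG3 and KRAB lists, the 5 genes most like ZNF667-AS1 and 3 other zinc finger genes; ZSCAN5A, C1RL-AS1, ARRDC1-AS1, ZNF90, PCDHA2 and others in runs, pairs and correlations were named after their values were seen. The steps were tested on simulated data. Alternatives were a pseudocount of 16, quantile normalisation, median centring, a filter on dim genes, the mean over features, a trended robust prior, another likeness measure and each array left out.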

Additional observations from a re-analysis of the deposited data

How the results depend on the processing

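The 6 members were lower in CAsE-PE under every alternative that kept them, which is no support, since this contrast chose them. The mean over features and the trended robust prior could not change their differences. Each member has 1 feature, and the prior acts on the spread only. A pseudocount of 16 gave the smallest differences, −4.10 for ZNF667-AS1, −1.95 for ZNF583, −1.90 for ZFP28, −1.56 for ZNF667 and −1.49 for ZNF471, and the dim filter kept 2 of the 6. Leaving out each array in turn gave 939 to 1519 genes lower (1604 with all arrays) and 949 to 1665 higher (1665), fewest without the passage 38 array. The same gave 3 to 4 neighbours lower and 0 to 2 higher, 0 to 1 KRAB corepressor genes higher, and 30 to 37 other zinc finger genes of chromosome 19 lower and 1 to 9 higher. Slopes were called for 3 to 178 genes over passages (4 with all arrays) and 7 to 226 over weeks (46), with 1 residual degree of freedom. Without the dimmest genes 1 neighbour was lower, 21 other zinc finger genes were lower and 4 higher, fewer genes being tested, and the PEG3 domain had no gene left. Quantile normalisation gave 14 other zinc finger genes higher, and the trended robust prior 1 KRAB corepressor gene higher. Over passages 0 genes were called without the dimmest genes, with a pseudocount of 16 or after quantile normalisation, and 13 with the trended prior. Over weeks the counts were 18 with a pseudocount of 16, 3 after quantile normalisation and 109 with the trended prior. The cause of these shifts was not tested. NLRP9 lost its call after median centring (adjusted p = 0.0529), with a pseudocount of 16 (0.0605) and after quantile normalisation (0.166), and CBX1 with the trended prior (0.0511). No paired analysis was made, because the RWPE-1 arrays are labelled by passage and the CAsE-PE arrays by weeks, and the labels link no array of 1 group to the other.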
